A study of Homo sapiens with 2 samples.

Results

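NRF2 (gene NFE2L2) is the transcription factor that switches on antioxidant, glutathione, NADPH and detoxification genes, and 47 genes of this system were followed in A549 lung cancer cells after knockdown of the long noncoding RNA MILIP. The list was set by gene symbol and not by a cut on the measured values, though earlier results of these data were known. It holds NRF2 with its regulators and partners, and its glutathione, thioredoxin, NADPH, heme and iron, quinone, conjugation and export targets. All 47 were found in the deposited table, among 27856 genes with values, and 46 had a mean of at least 1 over both libraries, as did 13521 genes in all. UGT1A6 was the member below that level.

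The study asked how gene expression differs when MILIP is depleted. A549 is an established human lung cancer cell line. One culture condition received a control siRNA and the other a MILIP siRNA, both by lipid transfection, and total RNA was taken 48 h later. Each condition is 1 library and MILIP was targeted with 1 siRNA sequence, so the effect of depleting MILIP, the effect of that siRNA sequence and the variation between cultures cannot be told apart. No test and no p-value was computed, and the 95% limits given beside ratios cover counting error only.

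In unstressed cells the adaptor KEAP1 hands NRF2 to a ubiquitin ligase and keeps it scarce. Oxidants and electrophiles modify KEAP1, and NRF2 then accumulates, pairs with a small MAF protein and binds antioxidant response elements, while BACH1 competes for the same elements. A549 cells carry a mutated KEAP1 and are known for constitutively active NRF2 with abundant targets.

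Values are given as normalised read counts, scaled by the authors to sums of 1016810 (control siRNA) and 978499 (MILIP siRNA). A single read was worth 0.0501 and 0.0503 respectively, which puts 20300800 and 19460956 reads behind the values, and a gene needed 20 reads to be listed above 0. The epithelial markers were present (5 of 5 above 0, summing to 3279 and 3708), 3 of 4 alveolar and lung markers and all 3 endothelial markers were listed at 0, and of the leukocyte markers CD14 was at 4.46 and 9.6 while PTPRC and CD3E had no value. Of the 3 fibroblast markers 2 were listed at 0 and 1 had no value. MILIP itself (ENSG00000265688, the MAFG-AS1 of the labels, chr17:81927829-81930753 in GRCh38) was at 29.5 in the control and at 3.22 after knockdown, from 588 and 64 reads. This was 0.109 times the control level (limits 0.0831 to 0.142, log2 ratio −2.85), in the direction of the labels. In bulk RNA, fewer cells that express a gene and less of its RNA per cell cannot be told apart.

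Log2 ratios below are MILIP siRNA over control siRNA after adding 1 to both values. Among the 46 members above the level filter, 30 had a log2 ratio above 0 and 16 below 0, with a median of 0.16 beside −0.03 over all 13521 genes. At least 1.5-fold higher were 4 members (BLVRB, CES1, EPHX1 and GPX2), which is 8.70% of them beside 11.1% of all genes. At least 1.5-fold lower were 2 members (GCLC and HMOX1), 4.35% beside 13.8% of all genes. Differences of this size were thus no more frequent in the list than in the transcriptome. Summed over the 47 members, the normalised read count was 24417 in the control and 26074 after knockdown, 1.07 times the control, or 2.40% and 2.66% of each library's sum. Counting limits on the ratio lay above 1 for 29 of the 46 members (63.0%) and below 1 for 12 (26.1%). Of the genes above 0 in both libraries, the shares with such limits were 30.4% and 36.8%. Such limits are narrow for abundant genes, and the members' median normalised read count in the control was 210 beside 28.1 over all genes.

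**Figure D1:**
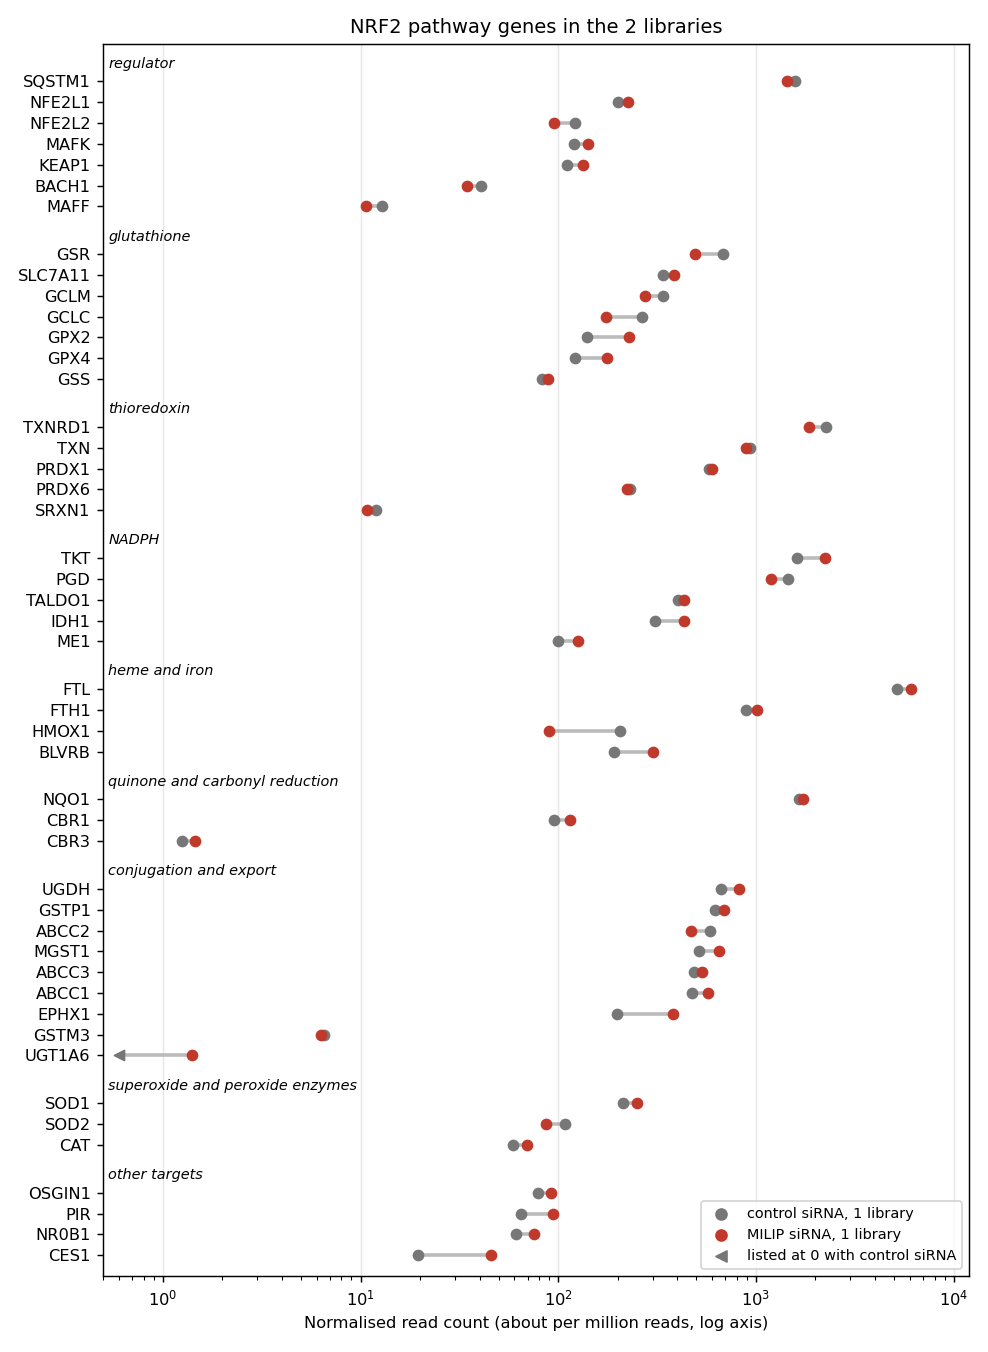
Normalised read count of each of the 47 members (horizontal log axis) in the control siRNA library (grey) and the MILIP siRNA library (red), 1 library each, grouped by role. The points of most members lie close together, while HMOX1 moves furthest to the left, from 206 to 90.2, and CES1 furthest to the right, from 19.5 to 46.0.

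The plot of values by library also shows how far apart the members stand in level. It does not divide by length. The levels per kb given here do, using all annotated exons of a gene. Per kb of annotated exon, FTL was at 5901 in the control library, followed by TXN at 813, NQO1 at 507, PGD at 488, FTH1 at 437, PRDX1 at 381, TXNRD1 at 338 and GSTP1 at 325 normalised read counts per kb. At the other end were CBR3 at 1.07 per kb and UGT1A6, listed at 0.

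Antioxidant response elements hold the core TGACNNNGC, with TGAGNNNGC as a variant, and the promoters of members were searched for both on either strand. Promoter windows from 250 bases before to 50 bases after an annotated start (RefSeq, GRCh38.p14) were at hand for 34 of the 47 members. The windows below show the core in capitals with 10 bases on each side, 5′ to 3′ along the gene, and were chosen because genes that were lower and genes that were higher with MILIP siRNA carried like cores.

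GCLM, chr1:93909446-93909474, − strand, 34 bases before the start: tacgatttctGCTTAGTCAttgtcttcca
KEAP1, chr19:10502784-10502812, − strand, 31 bases before the start: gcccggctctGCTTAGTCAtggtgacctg
TXNRD1, chr12:104286920-104286948, + strand, 102 bases before the start: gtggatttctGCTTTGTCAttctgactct
GPX2, chr14:64942849-64942877, − strand, 122 bases before the start: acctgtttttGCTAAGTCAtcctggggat
ME1, chr6:83431170-83431198, − strand, 137 bases before the start: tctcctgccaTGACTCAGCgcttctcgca
GSTP1, chr11:67583736-67583764, + strand, 66 bases before the start: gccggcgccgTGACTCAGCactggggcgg
EPHX1, chr1:225825266-225825294, + strand, 78 bases before the start: tgagattggcTGACTTGGCaggactgtgc
IDH1, chr2:208255196-208255224, − strand, 143 bases before the start: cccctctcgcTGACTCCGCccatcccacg

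GCLM and KEAP1 held the same 9 bases, GCTTAGTCA, and had log2 ratios of −0.29 and 0.26. TGACTCAGC stood before ME1 and GSTP1, with log2 ratios of 0.33 and 0.15. With the trend in transcript GC content removed, log2 ratios were −0.02 for GCLM, 0.08 for KEAP1, 0.56 for ME1 and −0.07 for GSTP1. The core TGACNNNGC was found for 14 of 34 members (41.2%), beside 19.6% of the 10347 genes above the level filter that had a window and 16.1% of all 27305 genes with one. TGAGNNNGC was found for 13 members (38.2%), beside 26.1% and 21.6%. Genes can have several windows, and by window the shares with TGACNNNGC were 27.8% of 54 for members, 14.6% for genes above the filter and 13.3% for all genes. The 13 members above the filter with TGACNNNGC ranged in log2 ratio from −0.29 to 0.94 with a median of 0.27, 9 above and 4 below 0. The 20 without it had a median of 0.09, 11 above and 9 below 0. When split by a match to either core, the medians were close. The 20 members with a match had a median of 0.18, 12 above and 8 below 0. The 13 without had 0.17, 8 above and 5 below 0. A match to these letters is a description of the sequence and not a binding site, and a longer element outside the window would be missed. The 13 members with no entry were MAFK, GSS, GSR, SLC7A11, PRDX1, PRDX6, HMOX1, FTH1, CBR3, ABCC1, ABCC3, SOD1 and CES1.

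The 7 regulators differed little, with log2 ratios between −0.35 and 0.26, and the transcription factor itself was the lowest of them. NFE2L2 was at a normalised read count of 121 in the control and 95.3 after MILIP knockdown, 0.785 times the control (limits 0.739 to 0.834, log2 ratio −0.35). KEAP1, its adaptor for degradation, was at 111 and 134, 1.20 times the control (1.14 to 1.27, log2 ratio 0.26). Both differences were under 1.5-fold, and with the GC trend removed the log2 ratios were −0.25 for NFE2L2 and 0.08 for KEAP1. NFE2L1, the related factor that drives proteasome genes, was at 200 and 224, 1.12 times the control (1.07 to 1.17, log2 ratio 0.17).

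Of the small MAF proteins, which pair with NRF2, MAFK was at 120 and 142, 1.18 times the control (1.12 to 1.25, log2 ratio 0.24). MAFF was at 12.8 and 10.7, and its limits of 0.692 to 1.01 held 1. The third small MAF gene, MAFG, is the neighbour from which MILIP takes its label, and it was at 190 and 176, 0.926 times the control (0.884 to 0.970, log2 ratio −0.11). BACH1, the competing repressor, was at 40.7 and 34.4, 0.846 times the control (0.763 to 0.937, log2 ratio −0.24). SQSTM1, the autophagy receptor that sequesters KEAP1 and is also an NRF2 target, was at 1576 and 1443, 0.915 times the control (0.900 to 0.930, log2 ratio −0.13). The plot of log2 ratios shows 3 regulators above and 4 below 0, none past 1.5-fold. With the GC trend removed, MAFK and BACH1 were near 0, at log2 ratios of 0.02 and −0.04.

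**Figure D2:**
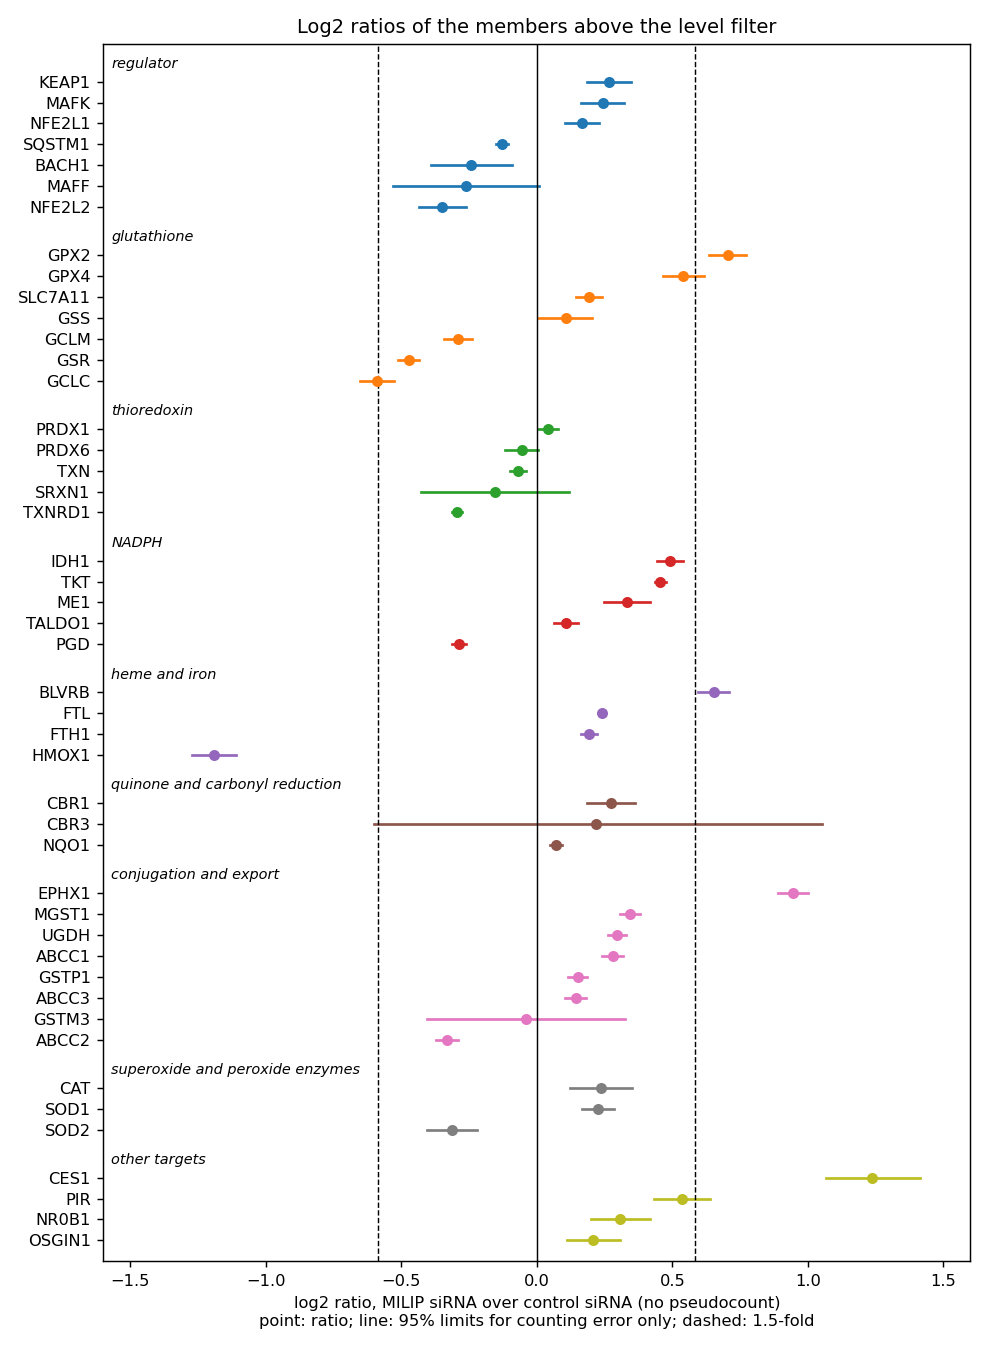
Log2 ratio of MILIP siRNA over control siRNA without a pseudocount for the 46 members above the level filter, by role, with lines for the 95% limits of counting error only and dashed lines at 1.5-fold. HMOX1 lies furthest below 0 and CES1 and EPHX1 furthest above, GCLC sits on the lower dashed line, and every role except quinone and carbonyl reduction and other targets has members on both sides of 0.

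Among the glutathione genes GCLC, GCLM and GSR were lower, and GSS, GPX2, GPX4 and SLC7A11 were higher. GCLC, the catalytic subunit of the rate-limiting ligase (chr6:53497341-53616970), was at 264 and 175, from 5267 and 3485 reads. This was 0.664 times the control (limits 0.636 to 0.693, log2 ratio −0.59), so that the 1.5-fold threshold lay inside its limits, and its log2 ratio was −0.56 with median-of-ratios scaling, −0.53 when scaled by total reads and −0.48 with the GC trend removed, each short of the threshold. GCLM, the modifier subunit of the same enzyme, was at 338 and 276, 0.817 times the control (0.788 to 0.847, log2 ratio −0.29). With the GC trend removed the GCLM log2 ratio was −0.02, beside the −0.48 of GCLC. GSS, which completes glutathione, was at 82.8 and 89.1, 1.08 times the control (1.01 to 1.15).

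GSR, which regenerates reduced glutathione with NADPH, was at 684 and 492, 0.720 times the control (0.702 to 0.739, log2 ratio −0.47). GPX2, a glutathione peroxidase of epithelia (chr14:64939152-64942905), was at 140 and 227, 1.63 times the control (1.55 to 1.71, log2 ratio 0.70). GPX4, the selenoenzyme that reduces lipid peroxides and guards against ferroptosis, was at 122 and 177, 1.45 times the control (1.38 to 1.53, log2 ratio 0.54), just short of 1.5-fold. Its limits held 1.5-fold, and its log2 ratio was 0.37 with the GC trend removed. SLC7A11, the cystine importer that supplies the pathway, was at 338 and 386, 1.14 times the control (1.11 to 1.18, log2 ratio 0.19). Over the 7 glutathione members the median log2 ratio was 0.11, with 4 above and 3 below 0.

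GCLC was also the only member whose 3′ UTR held a match to the seed of the MILIP siRNA, the 7 bases pairing with guide bases 2 to 8. The siRNA was si-MILIP.2, whose target was found once in the 1895-base MILIP transcript. The site covers bases 1033 to 1039 of a 1415-base 3′ UTR (ENST00000229416.10, GENCODE 29, GRCh38) and is shown in capitals because GCLC is a member at the 1.5-fold threshold.

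GCLC 3′ UTR: ttgtaaatcagGACCCTAaatgtttaatt

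Over all genes, 584 of 12114 with a 3′ UTR held the 7 bases (4.82%), with a median log2 ratio of −0.46 beside −0.01 for those without. Among members it was 1 of 46 (2.17%), with 1 transcript searched per gene. In coding sequence the 7 bases were present in 6 of 46 members (13.0%), ABCC1, ABCC2, ABCC3, BLVRB, ME1 and NFE2L1, and in 791 of the 12114 genes (6.53%). The part of the seed in the GCLC value was not tested.

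Thioredoxin genes were near or below the control, 1 above and 4 below 0 with a median log2 ratio of −0.07. TXNRD1, the selenoenzyme that reduces thioredoxin with NADPH, was the lowest at 2266 and 1848, 0.815 times the control (limits 0.804 to 0.827, log2 ratio −0.29). TXN, thioredoxin itself, was at 929 and 885, 0.953 times the control (0.934 to 0.973, log2 ratio −0.07). SRXN1, which repairs overoxidised peroxiredoxins, was at 12 and 10.8 with limits of 0.744 to 1.09, and 85.0% of its exon length overlaps the gene model AL121758.1 on the same strand, so its reads may be shared. The peroxiredoxins break down peroxides, and the 2 in the list were close to equal. PRDX1 was at 580 and 597, 1.03 times the control (1.00 to 1.06, log2 ratio 0.04). PRDX6 was at 232 and 223 with limits of 0.923 to 1.00 (log2 ratio −0.06). With the GC trend removed, the log2 ratios of TXN and PRDX6 changed sign, to 0.04 and 0.06. The log2 ratio of TXNRD1 was then −0.11, and SRXN1 was the lowest of this role at −0.16. Other peroxiredoxins of the wider list differed more, with PRDX4 at a log2 ratio of 0.77 and PRDX5 at 0.59, both past 1.5-fold, and PRDX3 at 0.02.

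NADPH genes had a median log2 ratio of 0.33, 4 above and 1 below 0, and none passed 1.5-fold. PGD, the second NADPH-forming dehydrogenase of the oxidative pentose phosphate pathway, was the exception at 1449 and 1188, 0.820 times the control (limits 0.806 to 0.834, log2 ratio −0.29). TKT, the transketolase of the non-oxidative branch, was at 1621 and 2222, 1.37 times the control (1.35 to 1.39, log2 ratio 0.45). TALDO1, the transaldolase beside it, was at 402 and 433, 1.08 times the control (1.05 to 1.11, log2 ratio 0.11). The pathway did not split by branch, since in the wider list PGLS, of the oxidative branch, had a log2 ratio of 0.60, and RPIA and RPE, of the non-oxidative branch, had −1.07 and −0.51. IDH1, the cytosolic NADP-dependent isocitrate dehydrogenase, was at 307 and 432, 1.40 times the control (1.36 to 1.45, log2 ratio 0.49). ME1, the cytosolic malic enzyme, was at 99.5 and 125, 1.26 times the control (1.19 to 1.34, log2 ratio 0.33). With the GC trend removed the IDH1 log2 ratio was 0.60, past 1.5-fold.

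Heme and iron genes held the lowest ratio of the whole list. HMOX1, heme oxygenase 1, which opens heme to biliverdin, iron and carbon monoxide (chr22:35380361-35394214), was at 206 with control siRNA and 90.2 with MILIP siRNA, from 4113 and 1793 reads. This was 0.438 times the control (limits 0.414 to 0.463, log2 ratio −1.18), and it stayed past 1.5-fold under the other scalings and with the GC trend removed. BLVRB, a biliverdin and flavin reductase (chr19:40447765-40465840), was at 192 and 302, 1.57 times the control (1.51 to 1.64, log2 ratio 0.65). The BLVRB log2 ratio was 0.45, short of the threshold, with the GC trend removed. In the wider list the other heme oxygenase, HMOX2, had a log2 ratio of −0.04, and BLVRA, the main biliverdin reductase, had 0.19. The ferritin subunits, which store the released iron, were both higher. FTL was at 5182 and 6114, 1.18 times the control (1.17 to 1.19, log2 ratio 0.24). FTH1 was at 886 and 1012, 1.14 times the control (1.12 to 1.16, log2 ratio 0.19), and 62.4% of its exon length overlaps BEST1 on the opposite strand.

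Quinone and carbonyl reduction was almost level. NQO1, the quinone reductase most often used as a readout of NRF2 activity, was at 1650 and 1731, 1.05 times the control (limits 1.03 to 1.07, log2 ratio 0.07). CBR1, a carbonyl reductase, was at 95.3 and 115, 1.21 times the control (1.14 to 1.29, log2 ratio 0.27). CBR3 was at 1.25 and 1.46 from 25 and 29 reads, too few to separate the libraries (limits 0.658 to 2.07), with 42.2% of its exon length overlapping CBR3-AS1. The 2 readily measured genes of this role were thus higher by less than 1.5-fold.

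Conjugation and export genes had 6 members above and 2 below 0 among the 8 above the filter, with a median log2 ratio of 0.21. EPHX1, the microsomal epoxide hydrolase (chr1:225810092-225845563), was at 197 and 380, from 3939 and 7561 reads, 1.93 times the control (limits 1.85 to 2.0, log2 ratio 0.94). UGDH, which makes the UDP-glucuronic acid used in glucuronidation, was at 669 and 822, 1.23 times the control (1.20 to 1.26, log2 ratio 0.30). EPHX1 was the only member of this role past 1.5-fold. UGT1A6, a glucuronosyltransferase, was listed at 0 in the control and at 1.41 with MILIP siRNA, from 28 reads, and 64.4% of its exon length is shared with other UGT1A genes, so no ratio is given.

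Among the glutathione transferases, MGST1 was at 514 and 652, 1.27 times the control (limits 1.24 to 1.3, log2 ratio 0.34), and its log2 ratio was 0.63 with the GC trend removed. GSTP1 was at 620 and 689, 1.11 times the control (1.08 to 1.14, log2 ratio 0.15). GSTM3 was at 6.51 and 6.34 with limits of 0.755 to 1.25. The direction of GSTP1 changed with the GC trend removed (log2 ratio −0.07), and that of GSTM3 both there (0.06) and when scaled by total reads (0.01). The ABCC exporters, which pump conjugates out of the cell, lay on both sides of 0. ABCC1 was at 474 and 575, 1.21 times the control (1.18 to 1.25, log2 ratio 0.28). ABCC3 was at 484 and 535, 1.10 times the control (1.07 to 1.14, log2 ratio 0.14). ABCC2 was at 588 and 467, 0.794 times the control (0.773 to 0.816, log2 ratio −0.33), the lowest of this role.

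Enzymes that act on superoxide and hydrogen peroxide directly lay between log2 ratios of −0.31 and 0.23. CAT, catalase, was at 58.8 and 69.3, 1.18 times the control (limits 1.09 to 1.27, log2 ratio 0.23). SOD1, the cytosolic superoxide dismutase, was at 213 and 249, 1.17 times the control (1.12 to 1.22, log2 ratio 0.22). SOD2, its mitochondrial counterpart, was at 108 and 87.0, 0.805 times the control (0.755 to 0.858, log2 ratio −0.31). The mitochondrial enzyme was thus the only one of the 3 below the control. With the GC trend removed the log2 ratios were −0.10 for SOD2, 0.35 for CAT and 0.32 for SOD1.

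All 4 of the remaining targets were above 0, with a median log2 ratio of 0.42. CES1, a carboxylesterase (chr16:55802851-55833337), had the highest log2 ratio of the list, at 19.5 with control siRNA and 46.0 with MILIP siRNA from 389 and 914 reads, 2.36 times the control (limits 2.09 to 2.66, log2 ratio 1.20). PIR, a nuclear iron-binding protein, was at 64.9 and 94.0, 1.45 times the control (1.35 to 1.56, log2 ratio 0.53). CES1 was past 1.5-fold and PIR short of it, though the limits of PIR held 1.5-fold. NR0B1, an orphan nuclear receptor, was at 60.9 and 75.4, 1.24 times the control (1.15 to 1.34, log2 ratio 0.30). OSGIN1, an oxidative stress induced growth inhibitor, was at 79.2 and 91.5, 1.15 times the control (1.08 to 1.24, log2 ratio 0.21), and its log2 ratio was −0.02 with the GC trend removed.

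**Figure D3:**
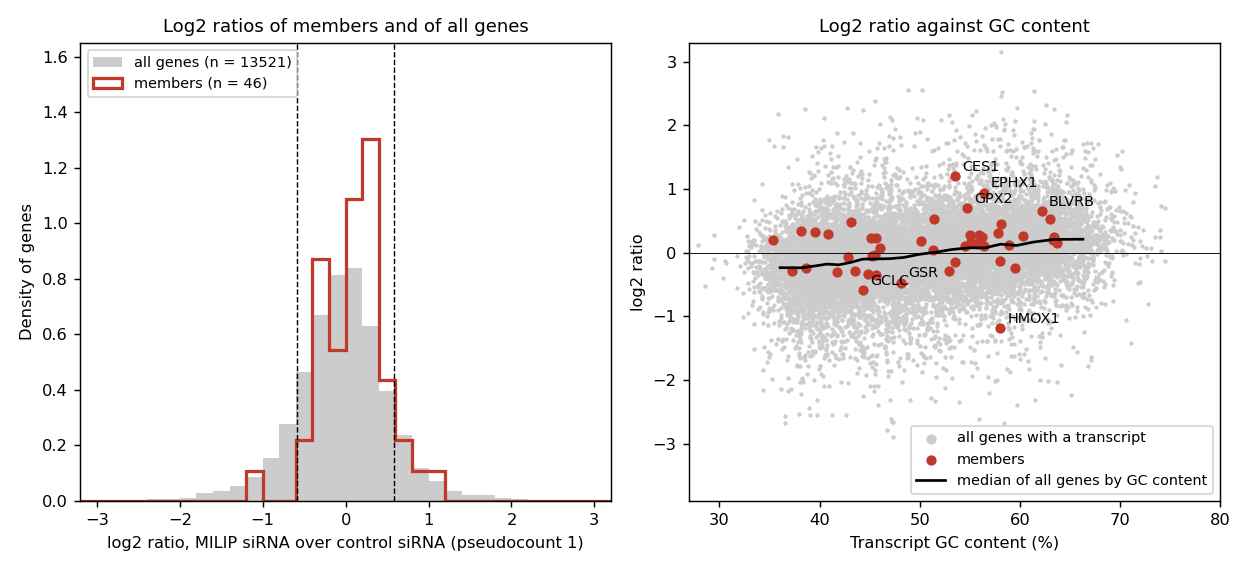
Left, density of log2 ratios (MILIP siRNA over control siRNA, pseudocount 1) for all 13521 genes (grey) and 46 members (red outline), with dashed lines at 1.5-fold. Right, log2 ratio against transcript GC content in percent, with a line for the median of all genes. The members sit mostly between the dashed lines, to the right of 0, and the line for all genes climbs with GC content.

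The plot of members among all genes shows that log2 ratios went up with transcript GC content across the transcriptome (Spearman 0.29 and Pearson 0.27 over 13398 genes of the same 2 libraries, given as a description). The median log2 ratio was −0.21 in the fifth of genes with the lowest GC content and 0.18 in the fifth with the highest. Members had a median GC content of 53.2% beside 49.2% for all genes, with 55.1% for the 30 members above 0 and 45.4% for the 16 below 0. With the GC trend removed, the median log2 ratio of the members was 0.07, and 36 of the 46 moved by more than their counting limits. HMOX1 (58.1% GC) lay against the trend, and its log2 ratio was then −1.28. Whether GC content has a part in the members' ratios beyond these values was not tested.

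Another 87 genes of the wider system, listed by function, gave the setting. The list was drawn up with earlier results of these data known, so its counts are a description only. Of these 77 passed the level filter, 51 above and 26 below 0 with a median log2 ratio of 0.19. At least 1.5-fold higher were 20 (26%, beside 11.1% of all genes) and at least 1.5-fold lower were 5 (6.49%, beside 13.8%). Thioredoxin-linked genes had 7 of 12 higher and 0 lower, among them MSRA, a methionine sulfoxide reductase, at 8.51 and 16.7 (log2 ratio 0.90). Glutathione-linked genes had 3 of 11 higher and 2 lower. GPX3, the secreted glutathione peroxidase, was at 8.31 and 20.7 (log2 ratio 1.22). GLO1, the glyoxalase that clears methylglyoxal with glutathione, was at 180 and 90.1 (log2 ratio −0.99).

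**Figure D4:**
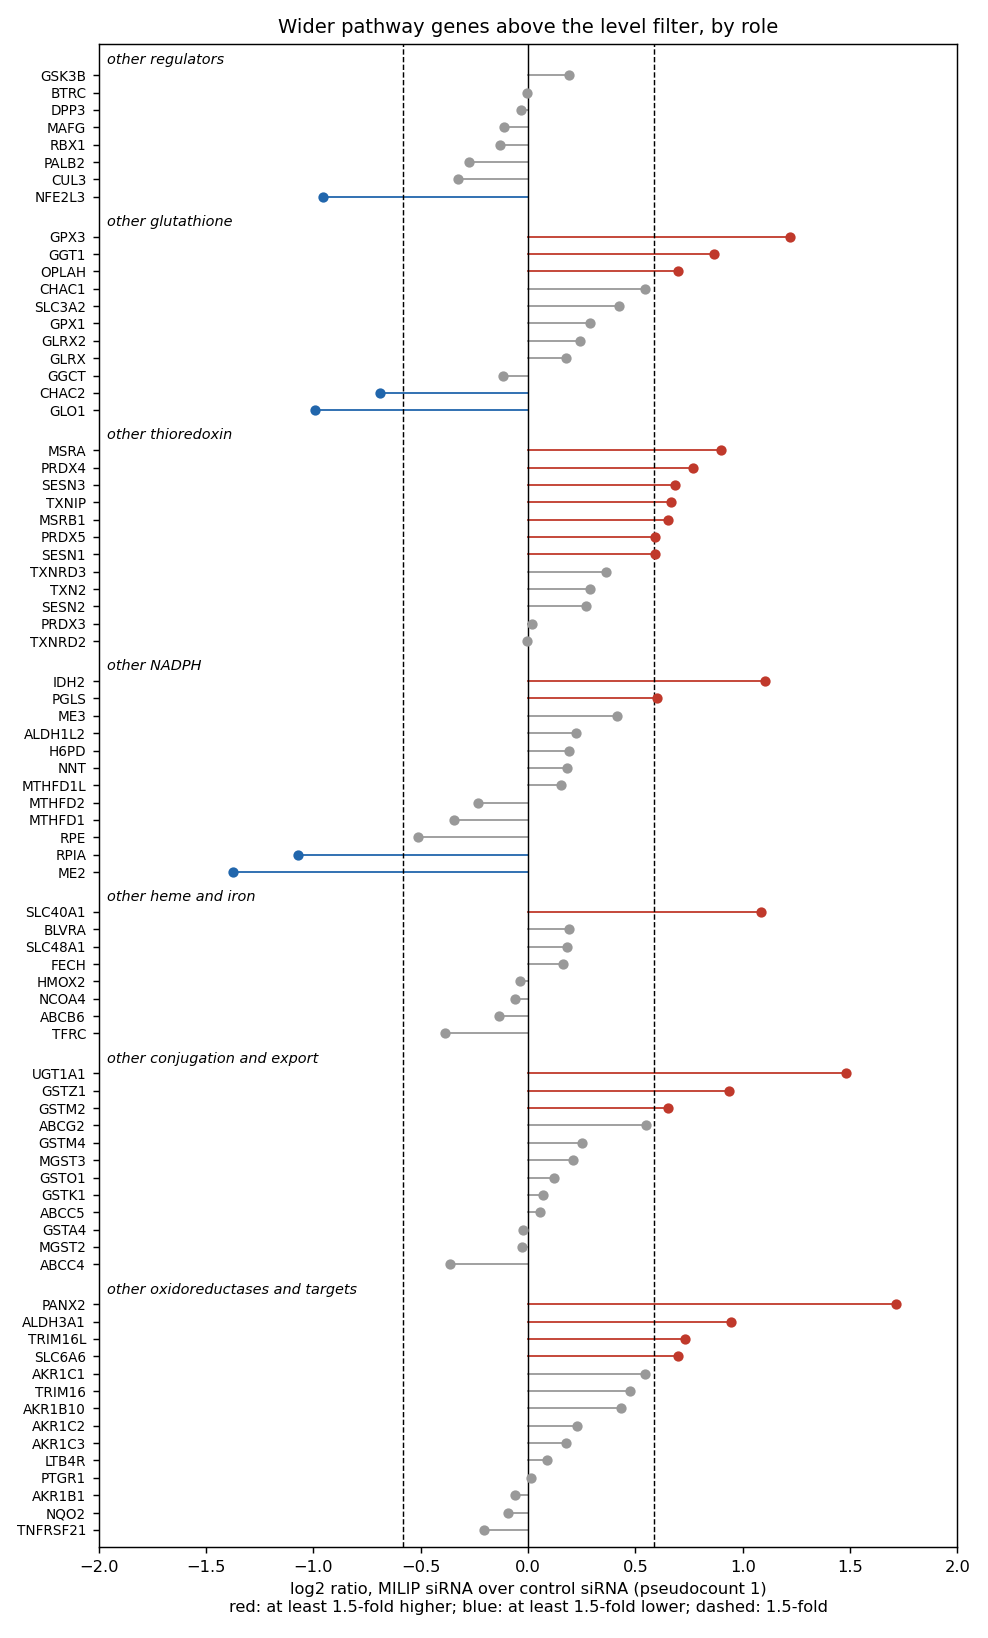
Log2 ratio (MILIP siRNA over control siRNA, pseudocount 1) of the 77 wider pathway genes above the level filter, by role, where red points are at least 1.5-fold higher, blue points at least 1.5-fold lower and dashed lines mark 1.5-fold. Thioredoxin-linked genes lie almost all above 0, while NADPH genes spread from ME2 at −1.38 to IDH2 at 1.10.

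The plot of the wider pathway shows that NADPH enzymes had the widest range of log2 ratios among these roles, 2 of 12 higher and 2 lower. Each is 16.7% of the 12, beside 11.1% of all genes higher and 13.8% lower. ME2, the mitochondrial malic enzyme, was at 86.9 and 32.9 (log2 ratio −1.38), while the cytosolic ME1 had 0.33 and ME3, also mitochondrial, had 0.41. RPIA, the ribose-5-phosphate isomerase, was at 40.3 and 18.6 (log2 ratio −1.07). IDH2, the mitochondrial counterpart of IDH1, was at 48.2 and 105 (log2 ratio 1.10).

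Of the regulators outside the list, 0 of 8 were higher (beside 11.1% of all genes) and 1 was lower (12.5%, beside 13.8%). The lower one was NFE2L3, a factor related to NRF2, at 64.4 and 32.7 (log2 ratio −0.96). Among heme and iron genes 1 of 8 was higher (12.5%, beside 11.1% of all genes), SLC40A1, the iron exporter ferroportin, at 32.5 and 70.1 (log2 ratio 1.09). Conjugation and export had 3 of 12 higher (25%, beside 11.1% of all genes) and 0 lower (beside 13.8%). GSTZ1 was at 14.9 and 29.4 (log2 ratio 0.94). UGT1A1 was at 1.5 and 5.98 from 30 and 119 reads (log2 ratio 1.48) and shares 49.9% of its exon length with other UGT1A genes.

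The oxidoreductases and further targets had 4 of 14 higher (28.6%, beside 11.1% of all genes) and 0 lower (beside 13.8%). PANX2, a pannexin channel gene, was at 9.62 and 33.8 (log2 ratio 1.71). ALDH3A1, an aldehyde dehydrogenase, was at 496 and 954 (log2 ratio 0.94). The aldo-keto reductases named with it were higher by less than 1.5-fold: AKR1C1 was at 580 and 847 (1.46 times the control, limits 1.43 to 1.5, log2 ratio 0.55) and AKR1B10 at 2313 and 3119 (1.35 times the control, 1.33 to 1.37, log2 ratio 0.43). Reads can be shared among the near-identical AKR1C genes. In 3′ UTRs, AKR1C1, AKR1C2 and H6PD held the siRNA seed match, and their log2 ratios of 0.55, 0.23 and 0.19 were all above 0. PRDX2 was listed at 0 in both libraries.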

How the data were processed

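RNA-seq of A549 cells (control siRNA, 1 library; MILIP siRNA, 1 library; 48 h) was analysed from the authors' table of 60711 gene IDs, 263 of them the authors' own. The submitters' processing notes name TopHat2 2.0.12, HTSeq 0.6.1 and hg38 with no roles; strand use and the scaling method are not given in the sources used here. The deposited values, named as read counts, are a scaled signal: all are whole multiples of a fixed step per library (tolerance 0.01 of a step), taken as 1 read. Columns of the authors' own comparison (log2 fold change, p-value, q-value and call) were not used.

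Log2 ratios used a pseudocount of 1 and genes with a mean of at least 1, which understates the difference of low genes. Counts of genes use 1.5-fold. Ratios without a pseudocount carry 95% Clopper-Pearson limits on the reads, for counting error only. Exon lengths, overlaps, GC content and 3′ UTRs (1 transcript per gene) came from GENCODE 29, which gave symbols for 56434 IDs, and promoters from RefSeq. Alternatives were a pseudocount of 0.1, median-of-ratios scaling, scaling by total reads, no filter, a mean of at least 5, a 2-fold threshold, the mean over members, and subtraction of the median of each of 50 GC bins. The members, lists and tests were chosen with earlier results of these data known. Values and limits were given for MILIP, the regulators, members past 1.5-fold and the highest and lowest member of each role, then for the other members; from the wider list MAFG, AKR1C1, AKR1B10 and up to 12 genes past 1.5-fold with the largest log2 ratios were named. An item of that list is not reported here. Other named genes were chosen after their values were seen. Calculations were checked on simulated data. Tools were scipy 1.17.1, pandas 2.3.3, numpy 2.4.6 and, for plots, matplotlib 3.10.9, under Python 3.11.15.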

Additional observations from a re-analysis of the deposited data

How the results depend on the processing

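No paired analysis was possible because there is a single library of each kind, and none could be left out. HMOX1 was the 1 member at least 1.5-fold lower under median-of-ratios scaling, when scaled by total reads and with the GC trend removed, since GCLC then fell short of the threshold. Higher members numbered 5 when scaled by total reads, where GPX4 joined, and 5 with the GC trend removed, where BLVRB left and IDH1 and MGST1 joined. UGT1A6 made it 5 with no filter. At 2-fold, 1 member was higher (CES1) and 1 lower (HMOX1), and the wider list had 5 higher and 2 lower. The median log2 ratio of the members was 0.065 with the GC trend removed and 0.17 to 0.21 under the other scalings, pseudocount and filters. The mean over members was 0.11. The sign changed for 0 members under the other pseudocount, filters and median-of-ratios scaling, 1 when scaled by total reads (GSTM3) and 5 with the GC trend removed (TXN, PRDX6, GSTP1, GSTM3 and OSGIN1). MILIP stayed between −3.15 and −2.80 on the log2 scale. Apart from the threshold and the lists named here, counts stayed within 1.5 times. Why the GC trend exists was not tested. The counting limits of CBR3, MAFF, SRXN1, GSTM3 and PRDX6 hold a ratio of 1, and the first 4 of these are the ones with few reads.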
